A study of Mus musculus with 80 samples.

Results

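Clean alleles are reads of an edited *Ptbp1* splice site in which the splice-site adenine was read as guanine and nothing else in the protospacer had changed. They were taken from allele tables of amplicon sequencing and had no gap against the reference, G at the target adenine, and the reference base at the other 19 positions of the 20-base protospacer. These alleles were chosen by the measured base calls of each read, so the presence of the target edit in these alleles is a definition rather than a result. In the 60 samples that received an editor, 1846 of 9907 allele rows were clean, and they held 100950 of 272286 reads. The whole set of 80 samples held 11389 allele rows and 343154 reads. Clean alleles were 18.6% of the rows, 37.1% of the reads and 65.9% of the reads with the target edit in the edited samples. The other 3433 rows with the target edit, with 52198 reads, carried at least 1 further mismatch or a gap.

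An adenine base editor joins a deaminase, which turns adenine into inosine that is copied as guanine, to a Cas9 nickase that is placed by an sgRNA. The adenine of the GT dinucleotide at a splice donor (on the opposite strand) or of the AG dinucleotide at a splice acceptor can thus be replaced, and loss of either dinucleotide disrupts splicing. Other adenines near the target, called bystanders, can be deaminated on the same molecule. ABEmax carries an earlier evolved deaminase and ABE8e a faster one. *Sp*Cas requires an NGG motif (PAM) beside the protospacer, whereas the *Sp*G variant accepts NGN. *Ptbp1* encodes an RNA-binding protein that represses neuronal exons in non-neuronal cells.

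The study asked which sgRNA and editor disrupted *Ptbp1* splicing, and it tested them in Hepa1-6, a hepatoma line from a C57L mouse. Cells were transfected, using 0.5 µl Lipofectamine 2000 and 400 ng DNA in total, with an sgRNA and an editor that joined *Sp*Cas or *Sp*G to ABEmax or ABE8e, and controls received the sgRNA alone. The 3 NGG sites (donors of exons 1, 7 and 8) had all 4 editors, and the 4 other sites (donors of exons 3 and 9, acceptors of exons 3 and 7) had the *Sp*G editors. This gave 20 edited groups of 3 samples each and 7 control groups with 20 samples, of which the exon 7 donor control had 2. The labels of exon 1 and both acceptors give "ABE" without a version, and this was read as ABEmax. A single line was used and the labels name no sort for transfected cells, so a share of all reads also depends on how many cells took up the plasmids. Samples held 399 to 18227 reads (median 3799.5). At the exon 7 donor, replicate 1 of *Sp*Cas-ABE8e held the most reads and came in a table of another format. The main values of this group, but not all that rest on it, are therefore also given from replicates 2 and 3 alone.

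The sequences below show what distinguishes a clean allele at each site. Each is the protospacer on the sgRNA strand, written 5′ to 3′, with the edited splice-site base in capitals.

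Exon 1 donor, clean: acttGcccgtccatggcaca
Exon 3 donor, clean: cttGcctgctgaggcagagc
Exon 3 acceptor, clean: ttctcGgcggggatccgacg
Exon 7 donor, clean: cttGccaaaggctgctgcca
Exon 7 acceptor, clean: cccacGgtccctggatggcc
Exon 8 donor, clean: aatGcctgcggcctgaggga
Exon 9 donor, clean: acatGcctcagggttcagat

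Positions are counted from 1 at the 5′ end, and the reference base is named first. The target change was A4G at the donors of exons 3, 7 and 8, A5G at the donors of exons 1 and 9, and A6G at both acceptors. The remaining adenines that could break a clean allele numbered 4 at the exon 1 donor, 3 at the exon 3 donor, 2 at the exon 3 acceptor, 4 at the exon 7 donor, 2 at the exon 7 acceptor, 4 at the exon 8 donor and 5 at the exon 9 donor. Further mismatches that are not A to G also took an allele out of the class.

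Each protospacer matched the mouse genome build GRCm39 at a single place, in *Ptbp1* (ENSMUSG00000006498.18, transcript ENSMUST00000172282.8, plus strand of chromosome 10). The build used for the tables is not given in the sources used here. The exon 1 donor protospacer covers chr10:79690542-79690561 on the minus strand with a CGG PAM, and its target lies at 79690557. That of the exon 3 donor covers chr10:79694644-79694663 on the minus strand with TGC, with the target at 79694660. The exon 3 acceptor protospacer covers chr10:79694579-79694598 on the plus strand with AGC, with the target at 79694584. The exon 7 donor protospacer covers chr10:79695775-79695794 on the minus strand with TGG, with the target at 79695791. The exon 7 acceptor protospacer covers chr10:79695608-79695627 on the plus strand with AGA, with the target at 79695613. The exon 8 donor protospacer covers chr10:79696014-79696033 on the minus strand with TGG, with the target at 79696030. The exon 9 donor protospacer covers chr10:79696790-79696809 on the minus strand with TGC, with the target at 79696805. All 7 targets are intronic bases of a splice dinucleotide, and each protospacer continues into the exon.

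The alleles just outside the class carried 1 further change, and they were 80.3% of the target-edited reads that were not clean at exon 1 with *Sp*Cas-ABE8e and 91.0% at the exon 7 donor with the same editor (90.5% in replicates 2 and 3). The companion with the highest mean share over all edited samples of a site is shown next, with both changed bases in capitals, for comparison with the clean allele.

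Exon 1 donor, A5G and A13G: acttGcccgtccGtggcaca
Exon 3 donor, A4G and A12G: cttGcctgctgGggcagagc
Exon 3 acceptor, A6G and A13G: ttctcGgcggggGtccgacg
Exon 7 donor, A4G and A7G: cttGccGaaggctgctgcca
Exon 7 acceptor, A4G and A6G: cccGcGgtccctggatggcc
Exon 8 donor, A2G and A4G: aGtGcctgcggcctgaggga
Exon 9 donor, A3G and A5G: acGtGcctcagggttcagat

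The further base is intronic at the exon 7 acceptor and the donors of exons 8 and 9. It is exonic at the other 4 sites. In the annotated frame, A7G at exon 7 is synonymous (F296F), as is A13G at the exon 3 acceptor (G15G). A12G at the exon 3 donor gives S36P, and A13G at exon 1 gives M1T, a change of the start codon.

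Clean alleles were nearly absent without an editor. The clean sequence held 70 reads in 44 rows over all 20 controls, and its share per control ran from 0% to 0.359%. The single control without it, replicate 1 of the exon 7 acceptor, had 6579 reads, which allows a share of up to 0.0456% by counting error alone. Edited samples ran from 0.0423% to 91.6%, and every sample of all 20 edited groups lay above every control of its site. How many protospacer alleles of any kind lay above the controls in this way was not counted. The mean difference was 35.8 percentage points over the 7 sites (two-sided permutation test within sites, p = 1e-05, the smallest that 100000 resamples can give). The lowest edited sample, replicate 1 of *Sp*G-ABEmax at the exon 7 acceptor, had 3 clean reads of 7086. The highest control there had 2 of 7594, which counting error does not separate from it. The clean class was made of many rows, from 1 to 131 per sample, since the tables split reads by changes outside the protospacer and by counted differences elsewhere in the amplicon. Of clean reads, 96.2% to 100% also matched in the 10 bases on each side, in samples with at least 20 such reads. Without the table of another format, 77.7% to 96.2% of clean reads in these samples had no other counted difference in the amplicon.

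The exon 7 donor had the lowest clean share of target-edited reads, and there ABE8e and ABEmax lay far apart. With *Sp*Cas-ABE8e, clean alleles were 3.34%, 3.49% and 3.36% of all reads, and 4.35%, 3.89% and 3.79% of target-edited reads. *Sp*Cas-ABEmax gave 25.7%, 24.3% and 26.5% of all reads, and 72.9%, 70.6% and 73.9% of target-edited reads. ABEmax thus gave 7.50 times the clean share of ABE8e, although the target was edited in 35.1% ± 0.711 of reads with ABEmax and in 85.1% ± 7.23 with ABE8e (SD, n = 3). In replicates 2 and 3 alone, ABE8e on *Sp*Cas had the target edited in 88.6% to 89.8% of reads. With *Sp*G-ABE8e the clean shares were 6.92%, 7.67% and 6.45% of all reads and 8.95%, 10.1% and 8.32% of target-edited reads. *Sp*G-ABEmax gave 18.8%, 16.1% and 15.5% of all reads and 82.2%, 85.7% and 84.0% of target-edited reads. The ABE8e and ABEmax samples did not overlap on either measure, and the differences in the share of target-edited reads were -68.4 percentage points with *Sp*Cas and -74.8 with *Sp*G. A two-sided exact permutation test of 3 samples against 3 cannot give less than p = 0.1, the value found for both. Without the table of another format the *Sp*Cas difference was -68.6 points of target-edited reads and -22.0 of all reads, against -22.1 with it.

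The missing clean reads at the exon 7 donor were mostly the synonymous companion printed above. The A4G and A7G allele held 73.8% ± 6.04 of all reads where ABE8e was on *Sp*Cas and 64.9% ± 2.25 where it was on *Sp*G (SD, n = 3). In *Sp*Cas-ABE8e replicates 2 and 3 alone it held 77.1% and 77.5%. With ABEmax it held 7.70% ± 0.157 on *Sp*Cas and 2.60% ± 0.561 on *Sp*G. Under ABE8e the intended single change was thus the rarer form of the edited site, and under ABEmax it was the more frequent. A further allele with A7G and A8G, cttGccGGaggctgctgcca, held 3.46% and 2.34% of reads in these ABE8e groups. With *Sp*Cas-ABE8e another with A7G and A9G, cttGccGaGggctgctgcca, held 2.27%, and in replicates 2 and 3 alone these held 3.73% and 2.50% on average. None of the 3 was read in the controls, whose 6137 reads allow a share of up to 0.0489%.

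At this donor the bystander was also read without the target edit, and the order of the 2 classes of reads differed by deaminase. With *Sp*Cas-ABEmax, A7G was present in 22.3% to 24.2% of target-edited reads and in 31.3% to 32.2% of gap-free reads without G at the target. With *Sp*G-ABEmax it was present in 11.7% to 14.7% and 16.6% to 18.5%, so that with ABEmax A7G was the more frequent where the target was unedited. With ABE8e the order was the opposite, with 95.2% to 95.8% against 5.15% to 9.44% on *Sp*Cas and 89.4% to 90.9% against 6.27% to 6.75% on *Sp*G. Replicates 2 and 3 of *Sp*Cas-ABE8e alone gave 95.6% to 95.8% against 7.02% to 9.44%. These ranges are given as a description, without a test.

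At the exon 9 donor, tested with the *Sp*G editors, ABE8e gave fewer clean alleles than ABEmax on both measures. Clean alleles were 44.5%, 43.4% and 43.6% of all reads with *Sp*G-ABE8e and 58.8%, 53.3% and 54.9% with *Sp*G-ABEmax. Of target-edited reads they were 59.8%, 60.9% and 59.5% with ABE8e against 96.5%, 96.2% and 96.2% with ABEmax. The samples did not overlap, and the differences were -11.8 percentage points of all reads and -36.2 of target-edited reads. The intronic A3G companion held 22.2% ± 0.449 of all reads with ABE8e and 0.405% with ABEmax. The allele acatGcctcGgggttcagat, with the synonymous A10G (P370P), held 2.53% and 0.340%. The allele with all 3 changes, acGtGcctcGgggttcagat, held 2.22% with ABE8e and was not read with ABEmax, where 13626 reads allow up to 0.0220%.

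At the exon 8 donor the effect of the deaminase on the clean share of all reads turned with the Cas variant. With *Sp*Cas, clean alleles were 62.3%, 63.9% and 63.6% of all reads under ABE8e and 74.6%, 70.7% and 70.0% under ABEmax. With *Sp*G they were 58.9%, 59.8% and 62.1% under ABE8e and 49.9%, 45.0% and 40.9% under ABEmax. ABE8e was therefore 8.50 percentage points below ABEmax on *Sp*Cas and 15.03 above it on *Sp*G, without overlap in either. The difference between these effects was -23.5 percentage points (two-sided exact permutation test over 400 arrangements, p = 0.005, adjusted p = 0.015 over the 3 NGG sites). Leaving out a replicate number brought it to -24.6 to -21.5 with a permutation p of 0.0556, the smallest that the fewer arrangements allowed. The adjusted permutation p was then 0.167. With the replicate number as a block the difference kept its size, with a permutation p of 0.03125, the smallest that 64 arrangements give. Adjusted over the 3 NGG sites, this permutation p was 0.0938.

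Among target-edited reads of exon 8, ABE8e lay below ABEmax on both Cas variants. The shares were 70.9%, 72.0% and 70.9% with *Sp*Cas-ABE8e against 94.6%, 93.6% and 93.2% with *Sp*Cas-ABEmax. They were 88.2%, 89.4% and 90.0% with *Sp*G-ABE8e against 96.3%, 96.3% and 96.5% with *Sp*G-ABEmax. The effects of -22.5 and -7.18 percentage points differed by -15.3, which did not pass the exact permutation test (p = 0.105, adjusted p = 0.158). That test exchanges deaminase labels within each Cas variant, so 2 effects of the same direction can hardly pass it. It therefore does not decide whether these effects differ. The intronic A2G companion held 18.6% ± 0.325 of all reads under ABE8e and 2.17% under ABEmax on *Sp*Cas. On *Sp*G it held 4.06% and 0.570%, so at this site it was the most frequent in the group with the lowest clean share of target-edited reads.

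With *Sp*G-ABE8e the exon 3 donor had the highest clean share of all reads of the 20 groups, and with both editors few target-edited reads were not clean. *Sp*G-ABE8e gave 91.6%, 89.3% and 90.1% of all reads, and *Sp*G-ABEmax gave 72.4%, 70.0% and 70.2%. Clean alleles were 97.4%, 97.0% and 97.4% of target-edited reads with ABE8e and 98.8%, 98.5% and 98.9% with ABEmax. ABE8e was thus higher by 19.5 percentage points of all reads and differed by -1.48 points of target-edited reads, without overlap on either measure. The A12G companion, which changes a serine codon to proline, held 1.06% of all reads with ABE8e and 0.0861% with ABEmax. The control held 0.0144% of it.

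The exon 1 donor was the only NGG site where ABE8e on *Sp*Cas had a purer edit than ABEmax. Editors are those of the sample labels, which the reads cannot check, and whether samples were exchanged was not tested. *Sp*Cas-ABE8e gave clean alleles in 42.8%, 47.0% and 41.1% of all reads and in 98.9%, 97.4% and 97.7% of target-edited reads. *Sp*Cas-ABEmax gave 33.4%, 28.4% and 27.1% of all reads and 85.7%, 89.0% and 87.2% of target-edited reads. The ABE8e samples were above all ABEmax samples, by 14.0 and 10.7 percentage points on the 2 measures. With *Sp*G the order among target-edited reads was the opposite. There the clean share was 91.8%, 92.5% and 92.4% for ABE8e and 99.3%, 100% and 98.5% for ABEmax (2, 0 and 3 reads not clean). The deaminase effect on this share differed by 17.7 percentage points between *Sp*Cas and *Sp*G (two-sided exact permutation test, p = 0.005, adjusted p = 0.015). Leaving out a replicate number gave 16.2 to 18.6, with a permutation p of 0.0556, the smallest the fewer arrangements allowed (adjusted p = 0.167). The replicate block gave a permutation p of 0.03125, the smallest that 64 arrangements give (adjusted p = 0.0938).

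Of all reads at exon 1, *Sp*G-ABE8e gave clean alleles in 16.9%, 22.3% and 30.1% and *Sp*G-ABEmax in 18.6%, 8.02% and 15.4%. These groups overlapped, and the difference of 9.07 percentage points had an exact permutation p of 0.2. The companion with M1T held 0.0510% of all reads under ABE8e and 1.18% under ABEmax on *Sp*Cas, and 1.28% and 0.0259% on *Sp*G. A change at position 1, A1G, was present in 5.16% ± 0.740 of target-edited reads with *Sp*Cas-ABEmax (SD, n = 3). There the allele GcttGcccgtccatggcaca, with A1G and A5G, held 1.71% ± 0.380 of all reads, more than the M1T companion, and at most 0.244% in the means of the other editors. This allele was named after its values were seen. On average the target itself was edited in more reads with ABE8e on both Cas variants. The means were 44.5% against 34.0% on *Sp*Cas and 25.0% against 14.1% on *Sp*G. The *Sp*G samples overlapped, at 18.4% to 32.6% with ABE8e and 8.02% to 18.7% with ABEmax.

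The acceptors differed in how much of the edit was clean. At the exon 3 acceptor *Sp*G-ABE8e gave 35.4%, 33.9% and 37.1% of all reads and *Sp*G-ABEmax 2.36%, 1.85% and 2.21%, which is 16.6 times as much with ABE8e. Nearly all of it was clean in both groups, at 98.2%, 97.8% and 98.1% of target-edited reads with ABE8e and 98.1%, 93.3% and 100% with ABEmax, the latter on 54, 45 and 37 reads. These overlapped, and the difference of 0.881 percentage points had an exact permutation p of 0.9. Its sign depended on the processing, with -0.964 where only A-to-G changes and gaps were counted, -0.354 where rare alleles were left out and a range of -0.910 to 2.25 when a replicate number was left out, negative without replicate 2. Replicate numbers are those of the sample titles, and for the edited samples of this site the deposited tables carry other numbers, shifted alike in both groups.

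At the exon 7 acceptor most target-edited alleles were not clean. *Sp*G-ABE8e gave clean alleles in 3.74%, 2.90% and 2.47% of all reads and in 21.01%, 19.1% and 22.8% of target-edited reads. The A4G companion, whose further base is separated from the splice adenine by a cytosine of the intron, held 11.5% ± 2.95 of all reads. The controls held 0.00946% of it. With *Sp*G-ABEmax clean alleles were 0.0423%, 0.502% and 0.153% of all reads. Only 3, 15 and 12 reads of these samples had the target edit, fewer than the 20 set as a minimum, so no share of target-edited reads was compared.

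Over the 9 pairs of groups with enough target-edited reads, which leave out the exon 7 acceptor, the clean share of target-edited reads was lower with ABE8e than with ABEmax. The mean was 68.8% with ABE8e and 91.7% with ABEmax, a difference of -22.9 percentage points (two-sided permutation test within site and Cas variant, 54 samples, p = 1e-05). ABE8e was lower in 7 pairs, all without overlap, and higher in the other 2. Of those, exon 1 with *Sp*Cas did not overlap and the exon 3 acceptor did. Of all 49 target-edited protospacer alleles tested in these pairs, as shares of target-edited reads, 30.6% lay wholly below with ABE8e and 49.0% wholly above. With the exon 7 acceptor included, at no minimum of reads, the difference was -26.7 points.

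The share of all reads, by contrast, had no common direction. ABE8e was higher in 6 of 10 pairs and lower in the remaining 4, with a mean difference of 4.14 percentage points (permutation test, p = 0.0903). In 5 pairs every ABE8e sample was above every ABEmax sample, and in 4 every one was below. Over all 58 tested protospacer alleles of these pairs, clean or not, 44.8% lay wholly above and 48.3% wholly below, so the counts for clean alleles were near this background. ABE8e was below in both pairs of the exon 7 donor, at exon 8 with *Sp*Cas and at exon 9. In each of those, as in every other pair, the mean share of reads with the target edited was higher with ABE8e. The means were 85.1% against 35.1% and 76.9% against 20.1% at exon 7, 88.7% against 76.5% at exon 8 and 73.0% against 57.8% at exon 9.

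At the NGG sites *Sp*Cas gave a higher clean share of all reads than *Sp*G and a lower clean share of target-edited reads. The difference was 11.8 percentage points of all reads (permutation test within site and deaminase, p = 2e-05), with *Sp*Cas higher in 5 of 6 pairs. The exception was the exon 7 donor with ABE8e, at -3.62 points. Of 42 tested alleles 59.5% lay wholly above with *Sp*Cas and 21.4% wholly below. Of target-edited reads, clean alleles were 71.1% with *Sp*Cas and 78.4% with *Sp*G, a difference of -7.22 points (permutation test, p = 8e-05). *Sp*Cas was lower in 5 of 6 pairs, with differences from -17.9 to -2.57 points, and higher by 5.74 points at exon 1 with ABE8e. As shares of target-edited reads, 18.2% of 33 tested alleles lay wholly below with *Sp*Cas and 57.6% wholly above.

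Ordered by mean clean share of all reads, the 20 groups ran from the exon 3 donor with *Sp*G-ABE8e (90.3% ± 1.16) through exon 8 with *Sp*Cas-ABEmax (71.8% ± 2.50) and the exon 3 donor with *Sp*G-ABEmax (70.9% ± 1.34) down to the exon 7 acceptor with *Sp*G-ABEmax (0.232% ± 0.240; SD, n = 3 each). In 7 of the 19 neighbouring pairs the samples overlapped. Ordered by the share of target-edited reads, the 19 groups ran from exon 1 with *Sp*G-ABEmax (99.3% ± 0.747) to the exon 7 donor with *Sp*Cas-ABE8e (4.01% ± 0.303), and 8 of 18 neighbours overlapped. The best groups by the 2 measures were thus different ones.

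The target-edited reads that were not clean differed in kind between sites and between editors at a site. At the exon 7 donor with *Sp*G-ABE8e 99.5% of 6080 such reads had a further A-to-G change, at the exon 7 acceptor with ABE8e 99.6% of 2245 and at exon 9 with ABE8e 96.6% of 4911. At the exon 3 donor with ABEmax it was 19.3% of 166 reads, while 71.1% had other mismatches only and 9.64% a gap. At exon 8 with *Sp*Cas-ABE8e 86.1% of 5142 reads had a further A-to-G change and 13.0% other mismatches only. With the other deaminase, the part with a further A-to-G change was 53.2% of 538 reads at the exon 3 donor (*Sp*G-ABE8e). It was 43.6% of 291 at exon 9 (*Sp*G-ABEmax) and 56.0% of 939 at exon 8 (*Sp*Cas-ABEmax). ABE8e was thus higher in these pairs, but at exon 1 with *Sp*Cas it was lower, at 45.5% of 66 reads against 76.4% of 237. Further A-to-G changes were thus nearly the whole remainder at both exon 7 sites with *Sp*G-ABE8e, and the smaller part of it at the exon 3 donor with ABEmax. In the controls, 98.8% to 99.3% of gap-free reads matched at the other 19 positions at exon 1, 96.6% to 97.5% at exon 8 and 91.9% to 98.2% at exon 9. The exon 9 controls thus varied more than the other 2 sets, and other mismatches alone were 2.05% of target-edited reads with ABEmax and 1.30% with ABE8e there.

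A wider class, counted after these values were seen, keeps target-edited reads that match at every exonic base of the protospacer and allows intronic changes. At the exon 7 acceptor with *Sp*G-ABE8e it was 99.3% ± 0.528 of target-edited reads, and at exon 8 with *Sp*Cas-ABE8e it was 96.2% ± 0.230 (SD, n = 3). At exon 9 with ABE8e it was 91.4% ± 0.630. At these 3 sites most target-edited reads that were not clean thus kept the reference sequence in the exon. With ABE8e at the exon 7 donor the wider class was 4.02% ± 0.297 on *Sp*Cas and 9.18% ± 0.864 on *Sp*G (3.79% and 3.91% in *Sp*Cas replicates 3 and 2), where the companion base is exonic and synonymous.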

How the data were processed

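The authors amplified each site by PCR, sequenced the amplicons on an Illumina MiSeq and aligned reads with CRISPResso2 (version not given in the sources used here). The deposited tables give, per allele of a 40-base window, a count of reads without normalization, the percent of the sample's reads, and numbers of inserted, deleted and mutated bases. Reads carried no molecular identifiers, so counting error is not the whole error. The deepest table (exon 7 donor, *Sp*Cas-ABE8e, replicate 1) lists no aligned sequence more than once, unlike the rest.

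Windows were matched to GRCm39 with GENCODE M39, read on the sgRNA strand, and the protospacer was bases 11 to 30. Shares were computed per sample from the counts, and no read was filtered. Samples were grouped by their labels, and the numbered samples of a group are replicates. The series calls its replicates biological without saying how cultures were kept apart, so p-values measure only the spread between these samples. Labels were permuted over samples within strata (100000 resamples, two-sided). Single pairs were tested by exact permutation with the smaller tail doubled, and differences between deaminase effects over 400 arrangements, with Benjamini-Hochberg adjustment. These arrangements exchanged deaminase labels within each Cas variant, which assumes no deaminase effect on either variant. Shares of target-edited reads needed at least 20 such reads in every sample of a pair. Named alleles were, per site, the clean one, the most abundant companion and any other at 2% of reads or more in an edited group. The background was every gap-free protospacer allele at a mean of 0.2% or more in a pair, of all reads or, for target-edited alleles, of target-edited reads. Python 3.11.15, numpy 2.4.6 and scipy 1.17.1 were used, and scripts were tested on simulated data. Members, lists and tests were chosen with earlier results of these data known.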

Additional observations from a re-analysis of the deposited data

Results flagged for a closer look

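In 2 cases the deaminase effects had opposite directions on *Sp*Cas and *Sp*G, and their difference passed an exact permutation test. The test exchanged deaminase labels within each Cas variant, which assumes no deaminase effect on either. Effects of the same direction can hardly pass it, so the other comparisons of this kind are left undecided. At the exon 8 donor the ABE8e minus ABEmax difference in the clean share of all reads was -8.50 percentage points with *Sp*Cas and 15.03 with *Sp*G, a difference of -23.5 (exact permutation test, adjusted p = 0.015). At the exon 1 donor the same contrast in the clean share of target-edited reads was 10.7 points with *Sp*Cas and -7.04 with *Sp*G, a difference of 17.7 (exact permutation test, adjusted p = 0.015). With the replicate number as a block both permutation p values were 0.03125, the smallest that its 64 arrangements give. Adjusted over the 3 sites, both permutation p values were 0.0938, so neither call held under the block. A cause was not tested for either.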

How the results depend on the processing

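The 5 comparisons pooled over sites kept their direction and their side of the threshold under each alternative run for them: A-to-G changes and gaps only, all 40 bases matching, rare alleles left out, gap-free reads only, correction by the controls' error rate, each replicate left out, the table of another format left out, no minimum of reads (the 2 comparisons of target-edited reads only), and the replicate block. Correction by the controls' error rate overcorrects in places. It took the clean share of target-edited reads at exon 1 with *Sp*G-ABEmax to 100.217%. The ABE8e minus ABEmax difference ranged from 3.36 to 5.63 percentage points of all reads (permutation p from 0.0758 to 0.279) and from -26.7 to -22.5 of target-edited reads. *Sp*Cas minus *Sp*G ranged from 11.1 to 12.6 and from -7.54 to -6.69.

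Same-numbered samples showed no common deviation (correlations of deviations in the share of all reads of -0.624, 0.114 and 0.378). Each correlation rests on 10 pairs of groups, too few to exclude that the numbers pair the samples. With the replicate block, the ABE8e minus ABEmax difference of -22.9 points of target-edited reads had a permutation p of 0.00021, and that of 4.14 points of all reads 0.184. The 2 differences between deaminase effects lost their calls under this block, at -23.5 (exon 8) and 17.7 (exon 1). Each had a permutation p of 0.03125, the smallest that 64 arrangements give, and an adjusted permutation p of 0.0938 over 3 sites. Without a replicate they ranged from -24.6 to -21.5 and from 16.2 to 18.6, with an adjusted permutation p of 0.167. The unadjusted permutation p was 0.0556, the smallest that the remaining 36 arrangements give. Other alternatives kept both calls. Of 595 values for single groups and pairs, 525 moved by less than the replicate spread, 67 moved further and 3 changed sign. All 3 were the exon 3 acceptor difference in target-edited reads, 0.881 as reported, at -0.964 with A-to-G changes and gaps only, -0.354 without rare alleles and -0.910 without replicate 2, in a range of -0.910 to 2.25 over the replicates left out.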
